A study of Mus musculus with 20 samples.

Results

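The chaperone and heat shock genes described here are the 83 gene symbols of the deposited RNA tables that begin with Hsp followed by a, b, d, e, h or a digit, with Dnaj, or with Cct followed by a digit. Hspg2, a matrix proteoglycan, was left out. They are 83 of 22878 symbols, and the rule uses names and no measured value. The RNA came from mouse CD4 T cells that were sorted by whether they expressed T-bet (Tbx21), the master regulator of T helper 1 cells, or had done so before, with 2 libraries in each of 6 groups. The 4 spleen libraries came from naive C57BL/6 mice in which T-bet drives ZsGreen together with CreERT2, and in which Cre activity turns on tdTomato for good by removing a loxP-flanked stop at Rosa26. Their CD44-high CD25- T cells all carried tdTomato, and were either ZsGreen+ (T-bet on at the time of the sort) or ZsGreen- (a history of T-bet without the current reporter). CreERT2 acts only with tamoxifen, and the sources used here do not give its use. The 8 lymph node libraries came from C57BL/6 mice in which T-bet drives Cre and the same tdTomato allele is present, so that Tomato marks cells with present or past T-bet. These mice had been immunized with the AS15 peptide in complete Freund's adjuvant, and tetramer-binding cells of the draining nodes were sorted on day 16. They formed 4 groups: follicular helper T (Tfh) cells, CXCR5-high and PD1-high, that were Tomato+ or Tomato-, and CXCR5-low PD1-low cells (non-Tfh) that were Tomato+ or Tomato-. The sources used here do not give age, sex or the number of mice behind a library. The spread between 2 libraries of a group may therefore be technical.

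Chaperones bind unfolded or partly folded proteins and release them in cycles of ATP use. Hsp70 proteins do so with J proteins (the Dnaj genes), which bring clients and speed ATP hydrolysis, and with exchange factors that reset the cycle. Hsp90 proteins act later, on clients such as kinases and receptors. The CCT ring folds actin and tubulin, and Hsp60 with Hsp10 (Hspd1 and Hspe1) is the chaperonin of mitochondria. The endoplasmic reticulum (ER) has its own Hsp70 and Hsp90, Hspa5 (BiP) and Hsp90b1 (GRP94, also called gp96), whose genes are induced by the unfolded protein response, while heat shock factor 1 drives genes such as Hspa1a and Dnajb1. T cells raise many of these genes when they are activated and prepare to divide or secrete.

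Gene reads ran from 13169783 to 24174592 per library. Reads fell on 15080 to 15326 genes in spleen libraries and on 11154 to 11805 in lymph node libraries. The common biological coefficient of variation estimated by edgeR was 0.0867 in the spleen fit and 0.908 in the lymph node fit, each over all genes tested. For Hspa5, as an example, the standard error of a log2 fold change was 0.18 in the lymph node and 0.08 in the spleen. The 12 detected genes of a CD4 T cell list, none of them at 0 in a whole group, summed to 3746 to 4487 RPKM in lymph node libraries and to 2975 to 3892 RPKM in spleen libraries. RPKM are the authors' reads per kilobase of transcript, scaled to each library. Transcripts used as markers of other cell types were present in all groups, but erythroid markers were at or near 0 in some. The erythroid sum was 0 to 0.779 RPKM in Tfh Tomato+ libraries and 0 to 0.254 RPKM in non-Tfh Tomato+ libraries. The sum over 14 B cell markers was 794 to 3977 RPKM, and that over 12 neutrophil markers was 1.101 to 1241 RPKM.

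Of the 83 members, 49 averaged at least 5 RPKM over the 12 libraries and 34 less. Reads were found in all 12 libraries for 62 members, and 14 were under 1 RPKM everywhere. Dnajc5b, Dnajc5g and Hspb8 had no reads at all. A count of 0 allows up to 3 reads per library, for counting error only. Of the 8 small heat shock proteins, 6 averaged under 1 RPKM. Hspb6 averaged 2.14 RPKM, with 0.0278 to 7.37 RPKM in lymph node libraries and 2.33 to 2.72 RPKM in spleen libraries. Hspb11 averaged 7.38 RPKM, and that gene encodes a subunit of intraflagellar transport rather than a stress chaperone. The members together took 0.964 to 1.103% of gene RPKM in lymph node libraries and 0.753 to 0.846% in spleen libraries. Hsp90ab1, the constitutive cytosolic Hsp90, and Hspa5 had the highest means in every group. Hsp90ab1 had 601 to 864 RPKM in lymph node and 416 to 526 RPKM in spleen. By mean it led Hspa5 in every group but Tfh Tomato+, where the libraries of both genes overlapped (695 and 605 RPKM for Hsp90ab1, 728 and 588 RPKM for Hspa5). They also overlapped in Tfh Tomato- (693 and 721 RPKM for Hsp90ab1, 749.9 and 619 RPKM for Hspa5). By mean over all libraries, next came Dnajb1, a J protein of the cytosolic stress response, Cct5, Hspa8 (the constitutive cytosolic Hsp70), Cct7 and Hsp90b1. Each of the 7 main CCT subunits averaged at least 5 RPKM. The testis form Cct6b and Cct8l1 stayed near 0.

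Among splenic T cells, ZsGreen+ libraries had more RNA of the ER chaperones Hspa5 and Hsp90b1, their J proteins Dnajc3 and Dnajb9, the exchange factor Hspbp1 and the mitochondrial Hsp70 Hspa9 than ZsGreen- libraries. The rises were modest, from 1.24 to 1.60 times. The Hsp110 protein Hspa4l was 2.09 times lower in ZsGreen+ cells, and Hspb11 was 1.96 times lower. Of 83 members, 72 passed the filter on low counts and 18 of these passed the test (edgeR quasi-likelihood, Benjamini-Hochberg adjusted p below 0.05 over all 12918 genes tested). That is 25% of the tested members, against 23.8% of all genes tested. There were 12 members higher in ZsGreen+ cells (16.7%, against 11.4% of all genes) and 6 lower (8.33%, against 12.4%). The median log2 fold change was 0.08 over the tested members and 0.004 over all genes. DESeq2 called 18 as well, against 21.3% of genes. Among members of at least 5 RPKM in either group, 25 of 49 lay higher in both ZsGreen+ libraries than in both ZsGreen- libraries (51%, against 37.4% of genes) and 7 lay lower (14.3%, against 27.7%). Called shares this near the background make no statement about the members as a class, so the results lie with single genes and compartments.

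4 members of the ER folding system with at least 5 RPKM rose. Hspa13, an atypical microsomal Hsp70 under 5 RPKM, also rose and is given below with the low members. Hspa5 had 254 and 276 RPKM in ZsGreen+ libraries, against 193 and 175 RPKM in ZsGreen- libraries, a log2 fold change of 0.49 ± 0.08 (SE; edgeR adjusted p = 0.00154, n = 2 each). Both ZsGreen+ libraries lay well above both ZsGreen- libraries. Hsp90b1 had 133 and 124 RPKM in ZsGreen+ libraries, against 94.4 and 89.4 RPKM in ZsGreen- libraries (0.45 ± 0.08, edgeR adjusted p = 0.00241). Dnajc3, an ER J protein also known as an inhibitor of eIF2 alpha kinases, had 42.4 and 45.3 RPKM in ZsGreen+ libraries, against 33.5 and 33.5 RPKM in ZsGreen- libraries (0.35 ± 0.07, edgeR adjusted p = 0.00684). Dnajb9, the ER J protein that brings BiP to the stress sensor IRE1, had 11.2 and 12.96 RPKM in ZsGreen+ libraries, against 8.66 and 8.33 RPKM in ZsGreen- libraries (0.47 ± 0.11, edgeR adjusted p = 0.0132). In all 4 genes the groups did not overlap. Dnajb9 lost its call without ZsGreen+ replicate 2 (adjusted p = 0.0839 by edgeR), while Hspa5, Hsp90b1 and Dnajc3 kept theirs without each library in turn. Not every ER member rose. Dnajb11, a BiP partner in the ER lumen, overlapped, with 55.2 and 58.4 RPKM in ZsGreen+ libraries and 56.3 and 49.8 RPKM in ZsGreen- libraries (edgeR adjusted p = 0.638). Dnajc10, an ER disulfide reductase, lay lower without overlap, with 9.49 and 10.5 RPKM in ZsGreen+ libraries and 10.7 and 12.5 RPKM in ZsGreen- libraries (edgeR adjusted p = 0.111). Both were picked after their values were seen, and they do not stand for the rest of that compartment, which was not listed in full. Of 11 Dnajb genes tested, 2 were called higher (Dnajb2 and Dnajb9), 1 lower (Dnajb14) and 8 did not pass. Among those 8, Dnajb12 lay lower without overlap (edgeR adjusted p = 0.0803). The Dnajb genes were not sorted by compartment here, so ER members may be among those that lay lower.

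**Figure D1:**
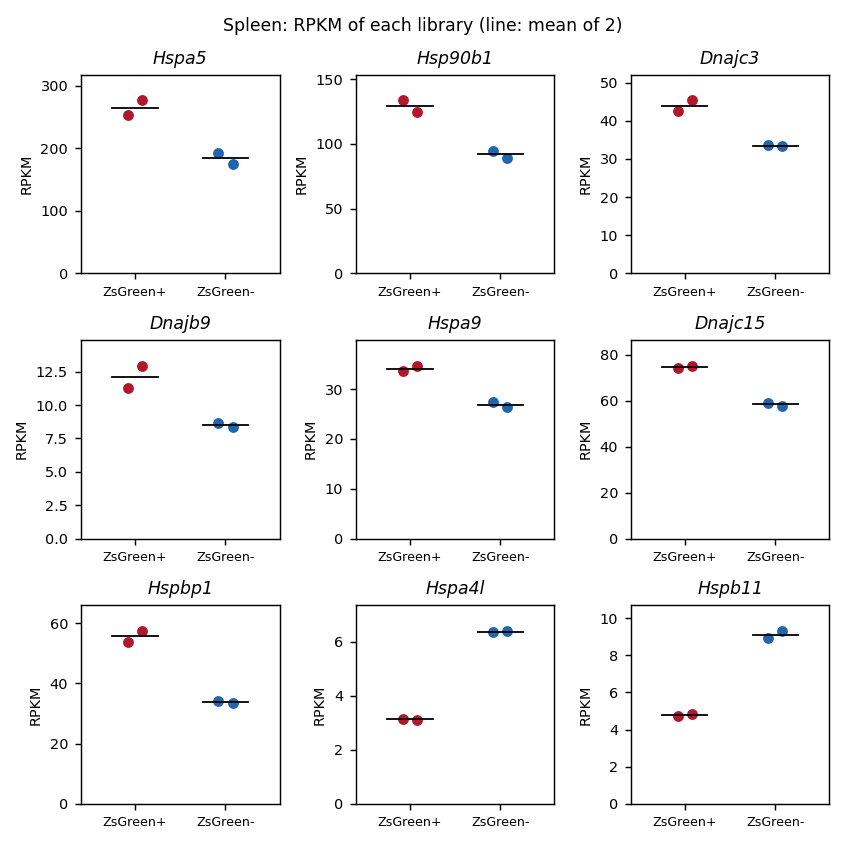
RPKM of 9 called chaperone genes in each spleen library, with ZsGreen+ libraries in red and ZsGreen- libraries in blue, a line at the mean of 2, and every axis starting at 0. In all 9 panels the groups do not overlap, and in the bottom row Hspa4l and Hspb11 are the ones lower in ZsGreen+ cells.

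A rise was also seen in ER genes outside the name rule. In a list of 20 other ER folding and unfolded protein response genes, 9 rose in ZsGreen+ cells, none fell and 11 did not pass. Of all genes tested, 11.4% rose and 12.4% fell. The list's median log2 fold change was 0.23, against 0.004 over all genes. Eif2ak3, the kinase PERK, had 7.85 and 7.45 RPKM in ZsGreen+ libraries, against 4.61 and 3.71 RPKM in ZsGreen- libraries (0.84 ± 0.12, edgeR adjusted p = 0.000586). Ddit3, the stress-induced factor CHOP, had 43.1 and 52.4 RPKM in ZsGreen+ libraries, against 27.1 and 26.9 RPKM in ZsGreen- libraries (0.78 ± 0.11, edgeR adjusted p = 0.000589). Herpud1, which serves ER-associated degradation, had 104 and 121 RPKM in ZsGreen+ libraries, against 76.2 and 64.5 RPKM in ZsGreen- libraries (0.64 ± 0.10, edgeR adjusted p = 0.00115). The other 6 that rose, named after their values were seen, were Calr, Hyou1, Sil1, Ern1, Pdia6 and Atf6. NK and innate-like T cell markers moved with these genes: all 11 on that list rose, with sums of 157 to 173 RPKM in ZsGreen+ libraries against 18.3 to 19.5 RPKM in ZsGreen- libraries. Neutrophil marker sums were 1190.5 to 1241 RPKM in ZsGreen+ libraries and 804 to 1099 RPKM in ZsGreen- libraries, with 1 of 12 markers rising. Macrophage and monocyte marker sums were 621 to 773 RPKM in ZsGreen+ libraries and 601 to 618 RPKM in ZsGreen- libraries, with 4 of 15 rising and 1 falling. Of 10 dendritic cell markers 3 rose, with sums of 175 to 199 RPKM in ZsGreen+ libraries and 119 to 145 RPKM in ZsGreen- libraries. B cell marker sums were 1148 to 1224 RPKM in ZsGreen+ libraries and 1032 to 1071 RPKM in ZsGreen- libraries, with none of 14 rising and 1 falling. Plasma cell marker sums overlapped, and erythroid marker sums were 181 to 189.8 RPKM in ZsGreen+ libraries and 193 to 219.5 RPKM in ZsGreen- libraries. The CD4 T cell list itself lay lower in ZsGreen+ libraries, with sums of 2975 to 3119 RPKM against 3761 to 3892 RPKM in ZsGreen- libraries: 6 of its 12 genes fell (Cd5, Trat1, Cd4, Cd247, Lat and Cd28) and none rose. The part of these marker differences in the ER result was not tested. In bulk RNA, a change in the share of cells of a type and a change in RNA per cell cannot be told apart.

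Promoters of the members were read for the ER stress element, the joint NF-Y and ATF6 motif made of CCAAT, any 9 bases and CCACG, on both strands, from 250 bases before to 50 bases after the RefSeq start. It was found in 3 of the 68 members with a promoter sequence (4.41% of them, against 0.137% of 27025 genes): Hspa5, Hsp90b1 and Dnajc3. Dnajb9, another ER member that rose, has a promoter sequence and no match in this window. The motif was chosen with the rise of the ER genes known, and a match is a description of letters, not of binding. The 250 bases before each start are shown as the motif's context, 5′ to 3′ on the gene's own strand with the matches in capitals, from RefSeq on GRCm38.p6. They lie at chr2:34771840-34772089 (plus strand) for Hspa5, chr10:86705445-86705694 (minus strand) for Hsp90b1 and chr14:118937682-118937931 (plus strand) for Dnajc3. Hspa5 has its match at bases -65 to -47 before the start and Dnajc3 at -105 to -87. Hsp90b1 has a pair of matches, at -212 to -194 and, on the opposite strand, at -107 to -89.
Hspa5: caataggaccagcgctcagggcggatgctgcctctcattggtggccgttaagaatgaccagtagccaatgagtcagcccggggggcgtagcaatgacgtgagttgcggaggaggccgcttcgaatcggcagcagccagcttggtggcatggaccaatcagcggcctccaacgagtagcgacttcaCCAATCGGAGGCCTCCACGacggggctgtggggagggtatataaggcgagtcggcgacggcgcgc
Hsp90b1: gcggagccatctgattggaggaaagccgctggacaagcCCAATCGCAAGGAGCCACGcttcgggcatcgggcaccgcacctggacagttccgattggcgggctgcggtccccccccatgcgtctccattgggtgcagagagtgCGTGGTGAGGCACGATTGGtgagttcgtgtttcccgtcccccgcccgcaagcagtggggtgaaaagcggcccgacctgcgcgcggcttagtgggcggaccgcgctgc
Dnajc3: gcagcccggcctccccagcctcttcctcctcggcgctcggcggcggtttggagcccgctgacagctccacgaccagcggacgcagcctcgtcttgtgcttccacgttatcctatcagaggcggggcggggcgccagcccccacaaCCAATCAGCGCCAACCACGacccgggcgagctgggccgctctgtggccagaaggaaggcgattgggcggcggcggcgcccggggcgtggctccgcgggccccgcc

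In the cytosolic Hsp70 system Hspbp1, a nucleotide exchange factor of Hsp70, rose. It had 53.8 and 57.5 RPKM in ZsGreen+ libraries, against 34.2 and 33.6 RPKM in ZsGreen- libraries (0.68 ± 0.08, edgeR adjusted p = 0.000177), and no library left out ended the call. The heat shock factor targets and the main cytosolic chaperones named next did not pass. Hspa1a, the stress-inducible Hsp70, had 10.9 and 10.3 RPKM in ZsGreen+ libraries and 9.19 and 7.63 RPKM in ZsGreen- libraries (0.30 ± 0.11, edgeR adjusted p = 0.0788). It did pass in 3 alternative fits, which are named in the closing section. No filter on low counts and a replicate block were among them. Its near-identical copy Hspa1b had 1.798 and 1.61 RPKM in ZsGreen+ libraries and 1.42 and 1.39 RPKM in ZsGreen- libraries, and the authors' counting may split reads between the copies, so both values are uncertain. Hspa8 had 121 and 126 RPKM in ZsGreen+ libraries and 109.8 and 102 RPKM in ZsGreen- libraries (0.19 ± 0.07, edgeR adjusted p = 0.097). Log2 fold changes of the other cytosolic core members were 0.15 ± 0.10 for Hsp90ab1, 0.14 ± 0.08 for Dnajb1, 0.10 ± 0.10 for the inducible Hsp90 Hsp90aa1, 0.10 ± 0.09 for the J protein Dnaja1 and 0.03 ± 0.09 for the Hsp110 protein Hsph1, with edgeR adjusted p from 0.26 for Dnajb1 to 0.87 for Hsph1. Hsp90ab1 passed without ZsGreen- replicate 2 (edgeR adjusted p from 0.0316 to 0.848 over all alternatives). Of these, the ZsGreen+ and ZsGreen- libraries overlapped for Hsph1, Hsp90aa1 and Dnaja1 and did not for Dnajb1 and Hsp90ab1. Dnajb2, a J protein that binds ubiquitin, rose with 8.01 and 7.82 RPKM in ZsGreen+ libraries against 5.87 and 5.89 RPKM in ZsGreen- libraries (0.39 ± 0.10, edgeR adjusted p = 0.0198). Dnaja4 had 5.33 and 5.54 RPKM in ZsGreen+ libraries and 4.38 and 3.02 RPKM in ZsGreen- libraries (0.52 ± 0.16, edgeR adjusted p = 0.0472). Leaving out ZsGreen- replicate 2 brought the Dnaja4 value to 0.29 and ended its call, as leaving out ZsGreen+ replicate 1 did; the Dnajb2 call ended without ZsGreen- replicate 1 or ZsGreen+ replicate 1.

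Of the mitochondrial members, Hspa9 and Dnajc15 rose. Hspa9, the matrix Hsp70 that pulls proteins through the import channel, had 33.6 and 34.7 RPKM in ZsGreen+ libraries, against 27.4 and 26.4 RPKM in ZsGreen- libraries (0.31 ± 0.07, edgeR adjusted p = 0.0135). Dnajc15, a J protein of the inner membrane known in mouse as a brake on respiration (MCJ), had 74.01 and 75.2 RPKM in ZsGreen+ libraries, against 59.02 and 57.7 RPKM in ZsGreen- libraries (0.32 ± 0.08, edgeR adjusted p = 0.0186). Both calls were lost when either ZsGreen+ library was left out (adjusted p up to 0.0659 for Hspa9 and 0.0811 for Dnajc15 by edgeR), at nearly the same fold change. The chaperonin pair did not pass: Hspd1 had 25.8 and 26.3 RPKM in ZsGreen+ libraries and 23.1 and 22.05 RPKM in ZsGreen- libraries (0.17 ± 0.08, edgeR adjusted p = 0.155), and Hspe1 had 53.6 and 52.2 RPKM in ZsGreen+ libraries and 43.9 and 48.1 RPKM in ZsGreen- libraries (0.16 ± 0.09, edgeR adjusted p = 0.248).

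Hspd1 and Hspe1 are read from a shared promoter in opposite directions, with their RefSeq starts 216 bases apart on chromosome 1 of GRCm38.p6. Between the starts lie overlapping matches to the heat shock element, which was searched on both strands as 3 alternating blocks with any 2 bases between them (GAA, TTC and GAA, or TTC, GAA and TTC). This pattern was found in 4 of the 68 members with a promoter (5.88%, against 0.662% of all genes): Dnajb6, Hspd1, Hspe1 and Hsph1, where the Hsph1 match lies after the start. The stretch at chr1:55088048-55088087 is shown on the strand of Hspd1, with the overlapping matches in capitals.
Hspd1 and Hspe1: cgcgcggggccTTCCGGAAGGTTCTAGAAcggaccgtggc

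**Figure D2:**
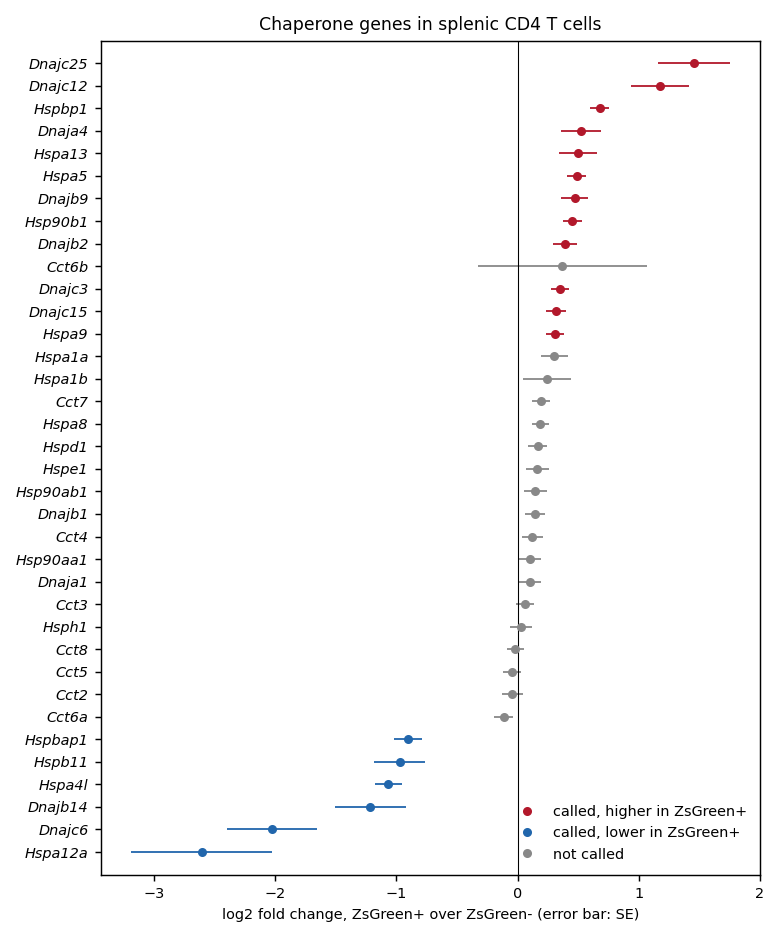
Log2 fold change with its standard error, ZsGreen+ over ZsGreen- spleen cells (n = 2 each), for the 18 called members and for core and CCT members that were not called. Red points were called higher, blue points lower, and grey points, among them all CCT subunits, did not pass; the ER genes Hspa5, Hsp90b1, Dnajb9 and Dnajc3 lie between 0.35 and 0.49.

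The CCT ring showed no called difference in the spleen. None of the 8 subunit genes tested passed, with log2 fold changes from -0.11 ± 0.08 for Cct6a to 0.19 ± 0.07 for Cct7 among the 7 main subunits (edgeR adjusted p = 0.337 and 0.0905). Cct5 had 164 and 161 RPKM in ZsGreen+ libraries and 162 and 165 RPKM in ZsGreen- libraries, and Cct8 had 77.6 and 77.2 RPKM in ZsGreen+ libraries and 78.7 and 74.04 RPKM in ZsGreen- libraries. The summed RPKM of the CCT members was 650.4 and 642 in ZsGreen+ libraries, against 615 and 623 in ZsGreen- libraries. Tcp1, the subunit gene outside the name rule, had 70.97 and 70.6 RPKM in ZsGreen+ libraries and 59.3 and 63.7 RPKM in ZsGreen- libraries (0.16 ± 0.08, edgeR adjusted p = 0.171). None of the 9 detected genes of the list of CCT partners, Tcp1 and prefoldin subunits among them, passed. Over the same libraries 20 of 30 cell cycle genes fell and 2 rose, against 12.4% and 11.4% of all genes tested. Their sums were 599.6 to 636 RPKM in ZsGreen+ libraries and 704 to 749 RPKM in ZsGreen- libraries.

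Members that fell in ZsGreen+ cells were mostly low. Hspa4l, an Hsp110 protein that serves as an exchange factor for Hsp70, had 3.14 and 3.11 RPKM in ZsGreen+ libraries, against 6.35 and 6.41 RPKM in ZsGreen- libraries (-1.07 ± 0.11, edgeR adjusted p = 0.000102), which was the smallest adjusted p of any member. The other Hsp110 members did not pass, with 0.14 ± 0.07 for Hspa4 and 0.03 ± 0.09 for Hsph1. Hspb11 had 4.72 and 4.83 RPKM in ZsGreen+ libraries, against 8.93 and 9.32 RPKM in ZsGreen- libraries (-0.97 ± 0.21, edgeR adjusted p = 0.00831). The remaining 7 called members, each under 5 RPKM in both groups, are named after their values were seen. Dnajc12 and Dnajc25 rose, with log2 fold changes of 1.18 ± 0.24 and 1.46 ± 0.30 (edgeR adjusted p = 0.00582 and 0.00614), and so did Hspa13, an atypical microsomal Hsp70 (0.50 ± 0.16, edgeR adjusted p = 0.0449). Hspbap1 (-0.90 ± 0.12), Dnajb14 (-1.22 ± 0.29), Dnajc6 (-2.02 ± 0.37) and Hspa12a (-2.61 ± 0.58) fell, with edgeR adjusted p from 0.000442 for Hspbap1 to 0.0141 for Dnajb14. Dnajc6 encodes auxilin, which uncoats clathrin vesicles with Hsc70, and it stayed under 1 RPKM in both groups, as did Hspa12a. The calls of Hspa13, Dnajb14 and Hspa12a were each lost when one or other library was left out: ZsGreen+ replicate 1 or ZsGreen- replicate 1 for Hspa13, ZsGreen+ replicate 2 for Dnajb14 and ZsGreen- replicate 1 for Hspa12a.

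Among 28 cochaperones and heat shock factors, 2 rose, 2 fell and 24 did not pass in the spleen. Of all genes tested there, 11.4% rose and 12.4% fell. Bag3, a partner of Hsp70 in selective autophagy, had 6.57 and 5.83 RPKM in ZsGreen+ libraries, against 11.6 and 11.9 RPKM in ZsGreen- libraries (-0.96 ± 0.11, edgeR adjusted p = 0.000183). Fkbp5, an Hsp90 immunophilin induced by glucocorticoids, had 16.7 and 15.1 RPKM in ZsGreen+ libraries, against 24.8 and 20.1 RPKM in ZsGreen- libraries (-0.53 ± 0.11, edgeR adjusted p = 0.00531). Hsf4, a heat shock factor best known from the lens, had 2.203 and 2.27 RPKM in ZsGreen+ libraries, against 1.04 and 0.633 RPKM in ZsGreen- libraries (1.38 ± 0.31, edgeR adjusted p = 0.00951). The fourth, named after its values were seen, was Fkbp4, the relative of Fkbp5, which rose (0.30 ± 0.07, edgeR adjusted p = 0.0149). The main heat shock factor Hsf1 had 38.7 and 43.6 RPKM in ZsGreen+ libraries and 42.99 and 37.5 RPKM in ZsGreen- libraries, with overlapping groups.

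In antigen-specific lymph node cells the question was whether a history of T-bet goes with other chaperone levels in Tfh and in non-Tfh cells. No member passed the edgeR test in any of the comparisons there, and 66 of 83 members passed the filter. Between Tomato+ and Tomato- Tfh cells, 0 members were called, against 0.111% of 11746 genes tested; 5 had an unadjusted p below 0.05 by edgeR, and DESeq2 called 1 member, against 2.23% of genes. That member was Hsp90b1, which had 132 and 106 RPKM in Tfh Tomato+ libraries, against 46.2 and 58.4 RPKM in Tfh Tomato- libraries. The log2 fold change was 1.17 ± 0.23 (adjusted p = 0.236 by edgeR, 0.128 to 1 over the other edgeR fits, and 0.000907 by DESeq2, n = 2 each). Its partner Hspa5 did not share this pattern, with 728 and 588 RPKM in Tfh Tomato+ libraries and 749.9 and 619 RPKM in Tfh Tomato- libraries (-0.07 ± 0.18, edgeR adjusted p = 1). Of the 20 ER genes none passed, and the list's median log2 fold change was 0.24, against 0.01 over all genes. The smallest adjusted p by edgeR on that list was that of Manf, an ER-resident secreted factor, with 59.1 and 52.9 RPKM in Tfh Tomato+ libraries and 31.7 and 29.6 RPKM in Tfh Tomato- libraries (0.86 ± 0.26, adjusted p = 0.696).

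Other members differed between Tfh Tomato+ and Tomato- libraries without overlap and did not pass. Cct8 had 87.5 and 80.95 RPKM in Tfh Tomato+ libraries, against 59.3 and 50.5 RPKM in Tfh Tomato- libraries (0.60 ± 0.22, edgeR adjusted p = 0.809). Cct3, another subunit of the same ring, lay the other way, with 40.3 and 54.7 RPKM in Tfh Tomato+ libraries against 77.8 and 77.96 RPKM in Tfh Tomato- libraries (-0.73 ± 0.28, edgeR adjusted p = 0.814). Dnajc15 had 58.5 and 76.3 RPKM in Tfh Tomato+ libraries, against 25.5 and 40.7 RPKM in Tfh Tomato- libraries (1.01 ± 0.42, edgeR adjusted p = 0.833). Dnajc5, the cysteine string protein of exocytosis, had 18.8 and 22.8 RPKM in Tfh Tomato+ libraries, against 37.3 and 40.9 RPKM in Tfh Tomato- libraries (-0.93 ± 0.28, edgeR adjusted p = 0.706). Among members of at least 5 RPKM in either group, 13 of 55 lay without overlap higher (23.6%, against 20.2% of genes) and 11 lower (20%, against 17.2%), shares close to those of all genes. The log2 fold changes of the heat shock factor targets and cytosolic core were small against their errors, with -0.08 ± 0.45 for Hspa1a, -0.04 ± 0.35 for Dnajb1, -0.13 ± 0.18 for Hspa8, -0.13 ± 0.18 for Hsp90ab1 and -0.30 ± 0.35 for Hsph1.

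Between Tomato+ and Tomato- non-Tfh cells, 0 members were called by edgeR, against 0.332% of genes; 6 had an unadjusted p below 0.05 by edgeR, and DESeq2 called 2, Hspa2 and Hspa12a, against 4.72% of genes. Hspa2, the testis-enriched Hsp70, had 8.17 and 6.71 RPKM in non-Tfh Tomato+ libraries, against 0.0481 and 0.0205 RPKM in non-Tfh Tomato- libraries, where 3 and 1 reads stood behind the values. It was also erratic among Tfh libraries, at 0.0431 and 10.4 RPKM in Tomato+ and 6.002 and 4.64 RPKM in Tomato-, and no fold is given. Hspa12a, an atypical Hsp70, had 0.0225 and 0.006502 RPKM in non-Tfh Tomato+ libraries and 1.64 and 1.76 RPKM in non-Tfh Tomato- libraries, with 3 and 1 reads in the Tomato+ pair. It was picked after its values were seen. Dnajc15, the mitochondrial J protein, had 167 and 131 RPKM in non-Tfh Tomato+ libraries, against 62.00 and 50.6 RPKM in non-Tfh Tomato- libraries (1.43 ± 0.42, adjusted p = 0.349 by edgeR and 0.0705 by DESeq2). Both mitochondrial Hsp70 partners lay lower: Hspa9 had 15.6 and 20.6 RPKM in non-Tfh Tomato+ libraries, against 30.4 and 54.3 RPKM in non-Tfh Tomato- libraries (-1.20 ± 0.36, edgeR adjusted p = 0.353). Dnaja3, the matrix J protein, had 2.97 and 7.75 RPKM in non-Tfh Tomato+ libraries, against 18.03 and 25.1 RPKM in non-Tfh Tomato- libraries (-1.97 ± 0.69, edgeR adjusted p = 0.454). Cct3 had 80.7 and 62.7 RPKM in non-Tfh Tomato+ libraries, against 104 and 147 RPKM in non-Tfh Tomato- libraries (-0.79 ± 0.28, edgeR adjusted p = 0.458). Hsp90b1 and Hspa5 overlapped between these groups (0.06 ± 0.23 and 0.11 ± 0.18). Hspa1a lay lower in both Tomato+ libraries, with 35.03 and 29.1 RPKM against 55.7 and 49.5 RPKM in Tomato- libraries (-0.69 ± 0.45, edgeR adjusted p = 0.692). Without overlap, 6 of 53 members lay higher (11.3%, against 20.1% of genes) and 13 lower (24.5%, against 21.9%).

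**Figure D3:**
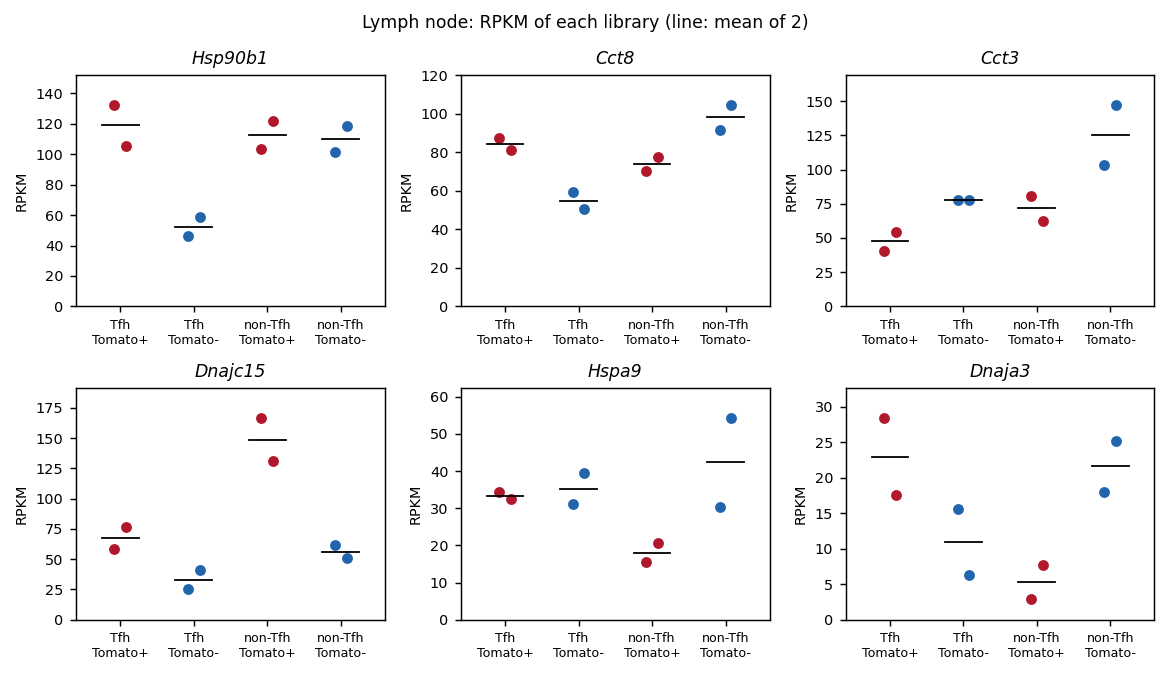
RPKM of 6 chaperone genes in each lymph node library, with Tomato+ libraries in red and Tomato- libraries in blue, a line at the mean of 2, and every axis starting at 0. Hsp90b1 is low in the Tfh Tomato- pair (46.2 and 58.4) and above 100 in the other 6 libraries; none of the differences passed by edgeR.

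Averaged over Tfh and non-Tfh cells, Tomato+ against Tomato- gave 0 called members by edgeR, against 0.656% of genes, with 7 at an unadjusted p below 0.05 and 5 called by DESeq2 (Cct3, Dnajc15, Hsp90b1, Hspa12a and Hspa2, against 5.45% of genes). The log2 fold change was -0.76 ± 0.20 for Cct3 (adjusted p = 0.2 by edgeR, 0.124 to 0.549 over the other edgeR fits, 0.0172 by DESeq2), 1.22 ± 0.30 for Dnajc15 (adjusted p = 0.174 by edgeR) and 0.62 ± 0.16 for Hsp90b1 (adjusted p = 0.22 by edgeR, 0.149 to 0.551 over the other edgeR fits, 0.0249 by DESeq2). Of 54 members of at least 5 RPKM, none had all 4 Tomato+ libraries above all 4 Tomato- libraries (0%, against 3.63% of genes), and 1 had all 4 below, Hsp90aa1 (1.85%, against 2.6%), at -0.27 ± 0.16 (edgeR adjusted p = 0.634). For Dnajc15 the Tomato+ pair was above the Tomato- pair within both cell types, and for Cct3 it was below. For Hsp90b1 the value was 1.17 ± 0.23 among Tfh cells and 0.06 ± 0.23, with overlap, among non-Tfh cells. Sums over marker lists of other cell types also differed between Tomato+ and Tomato- libraries, in both directions. Which cells this RNA came from was not tested. Macrophage and monocyte markers (15 detected of 16 listed) summed to 242 to 636 RPKM in Tomato+ libraries against 1185 to 1754 RPKM in Tomato- libraries. B cell markers summed to 794 to 1267 RPKM in Tomato+ libraries against 2065 to 3977 RPKM in Tomato- libraries. Neutrophil markers summed to 1.101 to 88.0 RPKM in Tomato+ libraries against 38.0 to 555 RPKM in Tomato- libraries. Of the 12 listed, only Elane and Mpo were at 0 in all 8. NK and innate-like T cell markers lay the other way, at 55.0 to 92.4 RPKM in Tomato+ libraries against 8.25 to 20.1 RPKM in Tomato- libraries, as did 5 plasma cell markers, at 246 to 402 RPKM in Tomato+ libraries against 146 to 225 RPKM in Tomato- libraries (Tnfrsf17 at 0 in all 8). Dendritic cell marker sums overlapped, as did those of the CD4 T cell list. Cell cycle genes summed to 357 to 585 RPKM in Tomato+ libraries against 216 to 341 RPKM in Tomato- libraries. Their part in the chaperone values was not tested.

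Tfh cells were then set against non-Tfh cells within each Tomato state. Among Tomato+ cells 0 members were called by edgeR, against 0.0766% of genes, with 4 at an unadjusted p below 0.05 and 0 called by DESeq2, against 3.49% of genes. Dnajc15 had 58.5 and 76.3 RPKM in Tomato+ Tfh libraries, against 167 and 131 RPKM in Tomato+ non-Tfh libraries (-1.23 ± 0.42, edgeR adjusted p = 0.525). Dnaja3 had 28.4 and 17.6 RPKM in Tomato+ Tfh libraries, against 2.97 and 7.75 RPKM in Tomato+ non-Tfh libraries (1.998 ± 0.69, edgeR adjusted p = 0.525), and Hspa9 had 34.3 and 32.5 RPKM in Tomato+ Tfh libraries, against 15.6 and 20.6 RPKM in Tomato+ non-Tfh libraries (0.79 ± 0.36, edgeR adjusted p = 0.632). Among Tomato+ cells the matrix pair thus lay higher in Tfh libraries and Dnajc15 lower, in each case without overlap. The pair did not keep this order among Tomato- cells. There Dnaja3 lay lower in Tfh libraries without overlap (-1.03 ± 0.67, edgeR adjusted p = 0.702) and Hspa9 overlapped (-0.32 ± 0.36, edgeR adjusted p = 0.905). Dnajc15 lay lower there as well (-0.82 ± 0.42, edgeR adjusted p = 0.609). Without overlap, 13 of 53 members of at least 5 RPKM lay higher (24.5%, against 24.7% of genes) and 7 lower (13.2%, against 18.9%). Hsph1 had 52.3 and 64.1 RPKM in Tomato+ Tfh libraries, against 99.8 and 68.4 RPKM in Tomato+ non-Tfh libraries (-0.62 ± 0.35, edgeR adjusted p = 0.711).

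Among Tomato- cells, Tfh against non-Tfh gave 0 called members by edgeR, against 0.179% of genes, with 5 at an unadjusted p below 0.05 and 3 called by DESeq2 (Cct8, Hsp90b1 and Hspa2, against 4.59% of genes). Hsp90b1 had 46.2 and 58.4 RPKM in Tomato- Tfh libraries, against 101 and 118 RPKM in Tomato- non-Tfh libraries (-1.12 ± 0.23, adjusted p = 0.18 by edgeR, 0.104 to 0.547 over the other edgeR fits, 0.000935 by DESeq2). This comparison shares the Tomato- Tfh libraries with that between Tomato+ and Tomato- Tfh cells, so the low pair enters both. Hspa5 lay the other way, with 749.9 and 619 RPKM in Tomato- Tfh libraries against 479 and 579.7 RPKM in Tomato- non-Tfh libraries (0.32 ± 0.18, edgeR adjusted p = 0.644). Cct8 had 59.3 and 50.5 RPKM in Tomato- Tfh libraries, against 91.8 and 105 RPKM in Tomato- non-Tfh libraries (-0.89 ± 0.22, adjusted p = 0.236 by edgeR, 0.170 to 0.771 over the other edgeR fits, 0.0145 by DESeq2). Cct3 had 77.8 and 77.96 RPKM in Tomato- Tfh libraries, against 104 and 147 RPKM in Tomato- non-Tfh libraries (-0.74 ± 0.28, edgeR adjusted p = 0.475). Hspbp1 had 9.802 and 21.5 RPKM in Tomato- Tfh libraries, against 43.9 and 32.5 RPKM in Tomato- non-Tfh libraries (-1.34 ± 0.79, edgeR adjusted p = 0.656). Without overlap, 8 of 55 members lay higher (14.5%, against 21.2% of genes) and 13 lower (23.6%, against 20.3%). For Hspbp1 the Tomato+ Tfh libraries stood far apart, at 6.76 and 40.5 RPKM.

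Averaged over the Tomato states, Tfh against non-Tfh gave 0 called members by edgeR, against 1.07% of genes, with 5 at an unadjusted p below 0.05 and 3 called by DESeq2 (Cct3, Dnajc15 and Hsp90b1, against 6.17% of genes). The log2 fold change was -0.71 ± 0.20 for Cct3 (adjusted p = 0.194 by edgeR, 0.109 to 0.516 over the other edgeR fits, 0.0326 by DESeq2) and -0.57 ± 0.16 for Hsp90b1 (adjusted p = 0.22 by edgeR, 0.158 to 0.525 over the other edgeR fits, 0.0370 by DESeq2). For Hsp90b1 the value was -1.12 ± 0.23 among Tomato- cells and -0.01 ± 0.23, with overlap, among Tomato+ cells. Hspa5 was higher in all 4 Tfh libraries than in all 4 non-Tfh libraries, by a narrow margin and without passing (0.23 ± 0.13, edgeR adjusted p = 0.535). It was 1 of 2 among 53 members of at least 5 RPKM with that order (3.77%, against 4.97% of genes), the other being Hspbap1, and 0 lay lower without overlap (0%, against 3.41%). The 7 main CCT subunits all had negative values here, from -0.71 ± 0.20 for Cct3 to -0.14 ± 0.24 for Cct2, and none passed. Among 28 cochaperones only Fkbp5 passed by edgeR. It had 34.5 and 56.6 RPKM in Tomato+ and 42.1 and 38.99 RPKM in Tomato- Tfh libraries, against 17.8 and 13.3 RPKM in Tomato+ and 15.97 and 16.1 RPKM in Tomato- non-Tfh libraries (1.37 ± 0.22, edgeR adjusted p = 0.0358).

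Whether the Tomato difference itself changes between Tfh and non-Tfh cells was tested as an interaction, which called 0 genes by edgeR (0% of 11746), with 6 members at an unadjusted p below 0.05, and 0 members by DESeq2, against 1.22% of genes. The interaction was 1.11 ± 0.33 for Hsp90b1 (adjusted p = 0.774 by edgeR, 0.345 to 0.9999 over the other edgeR fits, 0.0940 by DESeq2) and 0.99 ± 0.31 for Cct8 (adjusted p = 0.774 by edgeR, 0.388 to 0.9999 over the other edgeR fits, 0.162 by DESeq2) on the log2 scale. For Cct8 the Tomato+ pair was above the Tomato- pair among Tfh libraries and below it among non-Tfh libraries, both without overlap. Dnaja3, picked after its values were seen, had the same order. Its Tomato difference was 1.05 ± 0.67 among Tfh cells and -1.97 ± 0.69 among non-Tfh cells. The interaction was 3.02 ± 0.96 for Dnaja3 (edgeR adjusted p = 0.774).

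Levels in the 2 organs can be set side by side only as a description, because the mice, the immunization, the organ and the library set differ together and cannot be told apart. Of the 49 members averaging at least 5 RPKM, 10 had every lymph node library above every spleen library (20.4%, against 4.52% of 7285 genes of that level) and 0 had every one below (0%, against 8.52%). The 10 are the cytosolic members Hspa1a, Hspa8, Hsp90aa1, Hsp90ab1, Hsph1 and Dnajb1, the ER genes Hspa5 and Dnajb9, and Hspa4l and Dnajb6. Hspa1a had 20.3 to 55.7 RPKM in the 8 lymph node libraries (median 39.0), against 7.63 to 10.9 RPKM in the 4 spleen libraries (median 9.76). Dnajb9 had 30.3 to 52.8 RPKM in lymph node libraries (median 34.7), against 8.33 to 13.0 RPKM in spleen libraries (median 9.95). Hspa5 had 479 to 749.9 RPKM in lymph node libraries (median 587), against 175 to 276 RPKM in spleen libraries (median 223). Other cytosolic members overlapped between the organs: Dnaja1 had 7.35 to 10.8 RPKM in lymph node libraries (median 8.53), against 8.15 to 9.899 RPKM in spleen libraries (median 9.402). Dnaja1 has 3 transcript rows, and these values are those of the kept row, of 5575 bases, only. Hspa1b, which averaged under 5 RPKM, had 0.0375 to 1.71 RPKM in lymph node libraries (median 0.509), against 1.39 to 1.798 RPKM in spleen libraries (median 1.51). Hsp90b1 also overlapped between the organs, as did all 7 main CCT subunits. Dnajb6, a J protein that keeps aggregation-prone proteins soluble, had 6.16 to 16.5 RPKM in lymph node libraries (median 10.1), against 2.96 to 4.07 RPKM in spleen libraries (median 3.57). Hspa4l, lower in ZsGreen+ than in ZsGreen- spleen cells, was higher still in the lymph node, with 6.72 to 14.9 RPKM against 3.11 to 6.41 RPKM in the spleen.

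**Figure D4:**
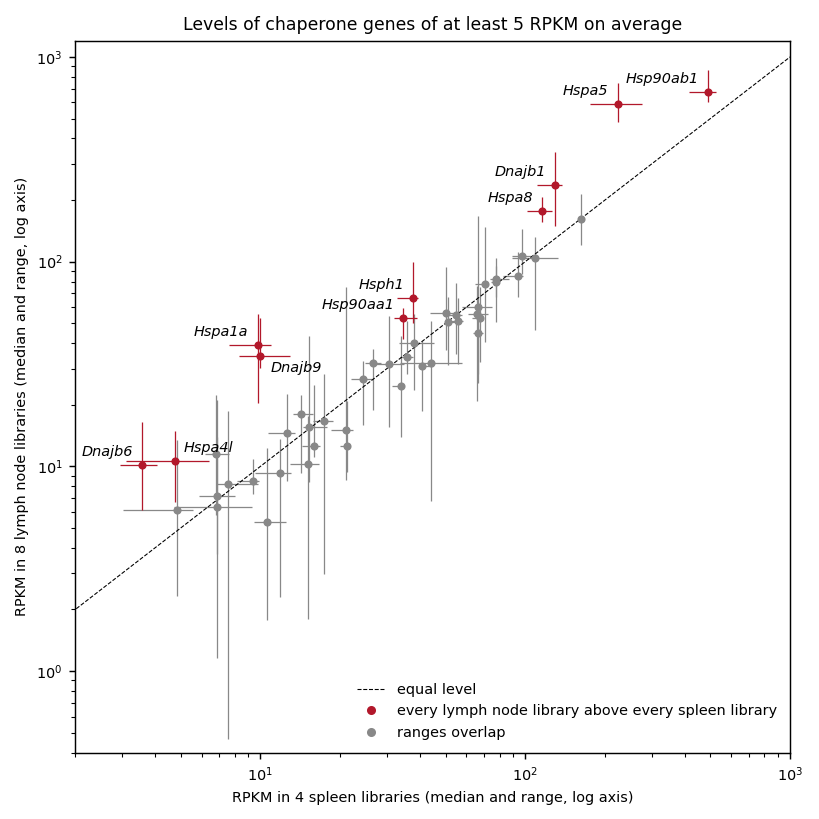
Median and range of RPKM over 8 lymph node libraries (vertical, log axis) against 4 spleen libraries (horizontal, log axis) for the 49 members averaging at least 5 RPKM. The 10 red genes have every lymph node library above every spleen library and lie above the dashed line of equal level. No gene has every lymph node library below every spleen library.

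Immediate early genes differed between the organs in the same direction, with 18 genes summing to 12566 to 19132 RPKM in lymph node libraries and 854 to 959 RPKM in spleen libraries, and their part in the chaperone levels was not tested. Neutrophil markers (1.101 to 555 RPKM in lymph node, 804 to 1241 RPKM in spleen) lay the other way. So did erythroid markers (0 to 22.6 RPKM in lymph node, 181 to 219.5 RPKM in spleen) and cell cycle genes (216 to 585 RPKM and 599.6 to 749 RPKM). Plasma cell markers were higher in lymph node (146 to 402 RPKM) than in spleen (113 to 118 RPKM). Sums of the other lists overlapped between the organs. The part of these differences in the chaperone levels was not tested either. Variation within organs also differed: the median coefficient of variation of members of at least 5 RPKM was 27.7% over lymph node libraries and 9.18% over spleen libraries, against 39.0% and 9.37% over all genes of that level. These values run over all groups of an organ, so differences between groups add to the spread between replicates.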

How the data were processed

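The deposited RNA tables give, per library, whole-number read counts and RPKM for 29257 transcript rows of RefSeq genes. RPKM are the authors' values, deposited beside the counts. The spleen tables carry the words Count and Size over each other's column, so the column proportional to RPKM times length was used there as counts. CASAVA 2.18, Bowtie2, SICER 1.1, edgeR and the build mm9 are named per the submitters' processing notes, without their roles. The sources used here do not say whether strand was counted. RNA was selected for poly(A), per the labels' protocols. For each of 22878 symbols the row with the most reads was kept (18 members had several rows).

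Counts were tested with edgeR 4.0.16 in R 4.3.3 (TMM, filterByExpr, quasi-likelihood F test) with a Benjamini-Hochberg adjusted p below 0.05 over all genes tested. The 4 spleen libraries were fitted alone and the 8 lymph node libraries together. The standard error is the absolute log2 fold change divided by the square root of F. Folds against a group near 0 reads move with the prior count. The scripts were tested on simulated counts. Alternatives were DESeq2 1.42.0, median-of-ratios factors, genes of at least 5 RPKM, no filter, a replicate block, only the libraries compared, and leaving out libraries. DNase islands were not used here.

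Named in every comparison were 13 core chaperones and the CCT subunits. Also named were called members of at least 5 RPKM whose groups do not overlap (at most 12 each way), in the lymph node the 5 widest such gaps each way, the 15 most abundant members, and up to 3 genes of each pathway list by adjusted p, of which a selection is described. The members, lists and rules were chosen with earlier results of these data known. Genes picked outside the rule are said to be so. Promoters are RefSeq sequences on GRCm38.p6, found for 68 members.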

Additional observations from a re-analysis of the deposited data

How the results depend on the processing

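In the spleen the number of called members was 18, and 13 to 19 when each library was left out in turn. It was 18 with DESeq2, 19 with median-of-ratios factors and 20 with no filter. With only genes of at least 5 RPKM it was 9, all among the 18, because fewer genes were tested (47 members). Of the 18, 10 kept their call without each library in turn. In the lymph node no edgeR setting called a member (0 to 0 with each library left out). DESeq2 called 1 between Tomato+ and Tomato- Tfh cells, 2 between Tomato+ and Tomato- non-Tfh cells, 3 between Tfh and non-Tfh among Tomato- cells, 5 for Tomato averaged over cell types and 3 for Tfh against non-Tfh averaged over Tomato states. The cause was not tested. The replicate block gave 20 in the spleen (13 higher, 7 lower) and 0 in the lymph node. The labels do not say that a replicate number is shared, and deviations of same-numbered libraries correlated at 0.119 in the spleen and from -0.0134 to 0.0284 in the lymph node. Over 2761 recomputed values of named members, 13 passed only in the alternative, 9 no longer passed, and 145 changed sign, none of which passed in either fit. Hspa1a passed in the spleen with no filter, with the block and without ZsGreen- replicate 1 (edgeR adjusted p from 0.0227 to 0.316 over all alternatives), and Hsp90ab1 without ZsGreen- replicate 2 (0.0316). With 2 libraries a group, precision is limited more in the lymph node than in the spleen. The common biological coefficient of variation, fitted with a mean for each group, was 0.908 in the lymph node and 0.0867 in the spleen.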
